A study of Mus musculus and synthetic RNA with 74 samples.

Results

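The 10 epiblast and pluripotency factors described here are *Nanog*, *Pou5f1*, *Sox2*, *Klf4*, *Klf2*, *Esrrb*, *Tdgf1*, *Zfp42*, *Tbx3* and *Nr5a2*. They were taken by symbol from the gene tables of mouse embryos, and all 10 were found among the 19639 genes listed at both embryonic day 2.5 (E2.5, 20330 genes) and E3.5 (21199 genes). Single embryos came from superovulated females heterozygous for *Mettl16*, the gene of an m6A RNA methyltransferase, mated with heterozygous males. All embryos belong to line #2112, in which a triple-stop cassette sits in exon 3 of *Mettl16*. The mutation is constitutive, on a mixed B6D2F1/J and C57BL/6JRj background, and the genotype of an embryo was read by the authors from reads over the mutated site. At E2.5 there were 5 WT, 14 HET and 12 KO embryos, and at E3.5 there were 18 WT, 9 HET and 12 KO embryos. The tables give 1 mean per gene and stage over the 31 or the 39 embryos of all genotypes together, so a level below is that pooled mean, it has no spread over embryos, and differences between stages are described without a test. Levels of WT, HET and KO embryos, and the fold changes between genotypes that accompany the means, were not analysed here. KO embryos were 38.7% of the E2.5 embryos and 30.8% of the E3.5 embryos, WT embryos were 16.1% and 46.2%, and the part of this difference in the values was not tested.

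Pluripotency is the capacity of the epiblast to form every tissue of the fetus. OCT4 (encoded by *Pou5f1*), SOX2 and NANOG form the centre of the transcription factor network that keeps it, and KLF2, KLF4, ESRRB, NR5A2 and TBX3 are DNA-binding factors that feed into the same network in naive embryonic stem cells. *Zfp42* (REX1) is a widely used marker of that state, and *Tdgf1* (Cripto) encodes a membrane-anchored co-receptor for Nodal. At E2.5 the embryo is a morula of cells that have not yet separated. At E3.5 it is a blastocyst, in which an outer trophectoderm encloses the inner cell mass that gives epiblast and primitive endoderm. In whole embryos, fewer cells of a type and less RNA per cell cannot be told apart.

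To show the DNA beside the levels, the 250 bases before the RefSeq start (GRCm38.p6, the same build as the mm10 of the tables) were read for 13 starts of 9 factors, and 4 short motifs were searched on both strands of these bases and the first 50 bases of the transcript. The promoters of the 3 factors with the higher level at E3.5 are printed, with every match in capitals, and that of the *Nr5a2* start whose first exon is described below. The motifs do not overlap one another in these windows.

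*Nanog*, chr6:122707315-122707564, plus strand: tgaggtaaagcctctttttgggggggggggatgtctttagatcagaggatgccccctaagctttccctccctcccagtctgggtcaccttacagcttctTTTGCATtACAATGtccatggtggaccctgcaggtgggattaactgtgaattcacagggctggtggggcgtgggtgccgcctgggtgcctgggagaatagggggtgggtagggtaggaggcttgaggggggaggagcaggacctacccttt

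*Sox2*, chr3:34649745-34649994, plus strand: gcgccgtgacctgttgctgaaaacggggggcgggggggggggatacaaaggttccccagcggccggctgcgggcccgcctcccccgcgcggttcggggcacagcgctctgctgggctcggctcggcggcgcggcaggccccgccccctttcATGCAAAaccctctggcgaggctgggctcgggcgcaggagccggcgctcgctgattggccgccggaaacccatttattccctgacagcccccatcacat

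*Zfp42*, chr8:43307010-43307259, minus strand: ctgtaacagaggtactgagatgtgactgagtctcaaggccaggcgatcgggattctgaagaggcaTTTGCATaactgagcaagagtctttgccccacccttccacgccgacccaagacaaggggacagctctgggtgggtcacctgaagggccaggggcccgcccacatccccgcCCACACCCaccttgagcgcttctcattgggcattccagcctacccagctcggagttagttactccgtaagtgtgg

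*Nr5a2*, chr1:136953631-136953880, minus strand: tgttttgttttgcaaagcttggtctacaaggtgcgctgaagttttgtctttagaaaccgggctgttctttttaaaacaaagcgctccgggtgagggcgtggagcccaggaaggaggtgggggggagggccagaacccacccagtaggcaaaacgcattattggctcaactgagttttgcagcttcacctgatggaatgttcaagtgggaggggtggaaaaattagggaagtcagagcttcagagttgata

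ATGCAAA, the first 7 bases of the octamer ATGCAAAT that POU factors such as OCT4 recognise, was found in *Nanog*, *Sox2* and *Zfp42*. It was in none of the other factors' windows, but *Tbx3* had no window to search. Of the 32851 promoter windows of the genome, 4.63% hold it. The whole octamer, held by 1.74% of windows, was found in *Zfp42* alone. In *Nanog* the 7 bases lie at -151 to -145 from the start. They are followed after 1 base by ACAATG, the reverse complement of the SOX motif CATTGT, at -143 to -138. In *Sox2* they lie at -99 to -93, and in *Zfp42* at -185 to -179. CATTGT was also found in an *Esrrb* and a *Pou5f1* window and is present in 12.6% of all windows. Both windows belong to starts whose first exons had almost no reads: 1.35 and 1.42 in *Pou5f1*, and 0 at both stages in *Esrrb*. The *Esrrb* match lies inside that first exon, at 32 to 37 from the start. CCACACCC, a KLF motif held by 3.56% of windows, matched *Zfp42* alone at -75 to -68, and AAGGTCA, the half-site of ESRRB and NR5A2 found in 4.72%, matched none of the 13. These matches are letters in a short window, and no binding was measured in these embryos.

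Summed over genes, the means amounted to 23557112 normalized estimated counts at E2.5 and 27145016 at E3.5. The stages were normalized separately by the authors, so each gene was expressed as CPM, its mean scaled to a stage total of 1000000, before the stages were set side by side. Of the 11817 genes with a mean of at least 1 CPM over both stages, 34.2% were at least 2-fold higher and 17.9% at least 2-fold lower at E3.5, and their median log2 difference was 0.39. With that median set to 0, the 2 shares became 25.8% and 24.5%. *Mettl16* itself stood at 33.0 CPM at E2.5 and 24.7 CPM at E3.5, and *Mat2a*, the SAM synthetase gene whose hairpins METTL16 methylates, at 1233 and 172 CPM. Markers of cumulus and other maternal cells summed to 0.323 and 0.441 CPM over the 5 of 8 genes listed, and none passed the filter.

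Against this background 3 of the 10 factors (*Sox2*, *Nanog* and *Zfp42*) were at least 2-fold higher at E3.5, 4 (*Tbx3*, *Nr5a2*, *Pou5f1* and *Klf2*) were at least 2-fold lower, and 3 (*Klf4*, *Tdgf1* and *Esrrb*) lay between. All 10 passed the filter, *Sox2* only through its level at E3.5. The median of the 10 log2 differences was -0.20, below the 0.39 of all genes. The same 3 and 4 factors were counted with the median of all genes set to 0, without the 100 largest genes in the totals, without any scaling, and with exon reads in place of gene estimates. If the normalized means were Poisson counts summed over embryos, each log2 difference would be uncertain by 0.14 or less at the 95% level. Normalized estimates from amplified libraries are not such counts, so their counting error can be larger. The spread between embryos, which is not in these means, comes on top.

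**Figure D1:**
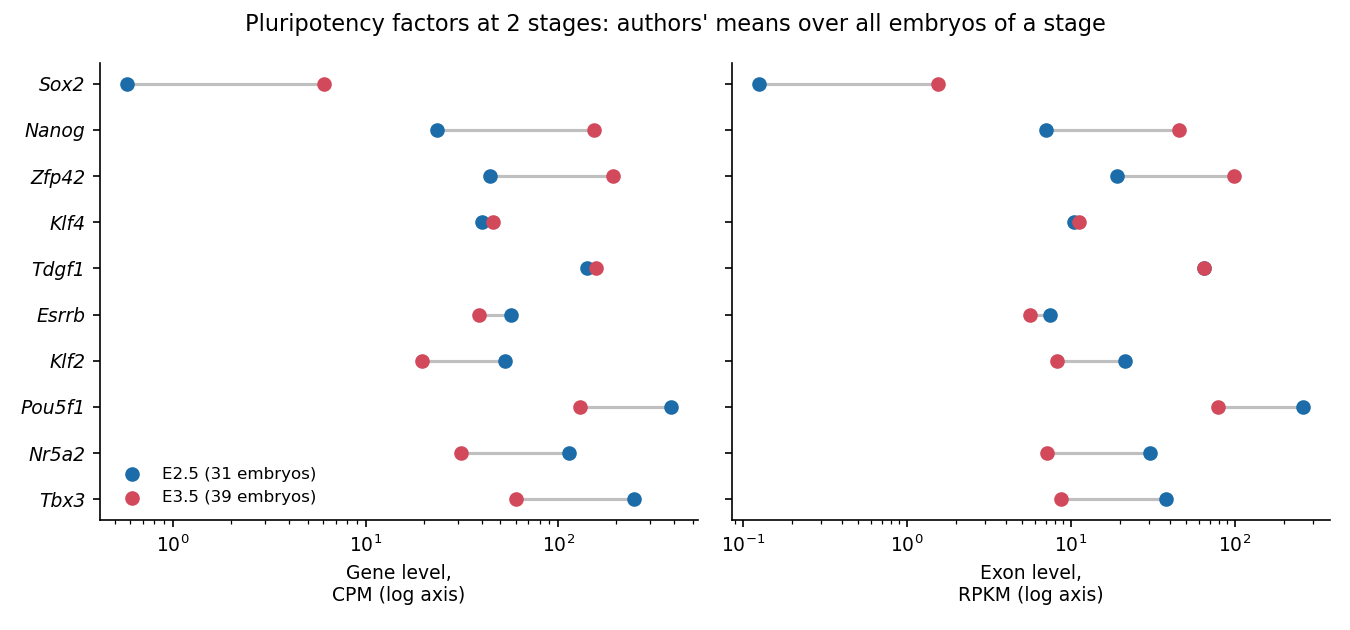
Level of each factor at E2.5 (blue) and E3.5 (red), as CPM on the left and as RPKM of exons on the right, both on log axes. Points are pooled means over 31 and 39 embryos with no error bar, because the spread between embryos is not in the tables. *Sox2*, *Nanog* and *Zfp42* sit further right at E3.5, and *Klf2*, *Pou5f1*, *Nr5a2* and *Tbx3* further left.

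The core trio differed in direction. *Pou5f1* (chr17:35506032-35510777, plus strand) had a mean of 9017 normalized estimated counts per embryo at E2.5 and 3527 at E3.5, or 383 and 130 CPM, 2.95-fold lower at E3.5. *Nanog* (chr6:122707489-122714633, plus strand) had means of 552 and 4161, or 23.4 and 153 CPM, 6.54-fold higher at E3.5. Of the genes that passed the filter, 90.2% had a lower log2 difference than *Nanog*. *Sox2* (chr3:34649995-34652461, plus strand, a single exon) had means of 13.6 and 165, or 0.579 and 6.09 CPM, 10.5-fold higher at E3.5. It was the lowest of the 10 factors at both stages, and at E2.5 it was below the 1 CPM used as filter. Per kilobase of exon, *Pou5f1* reads outnumbered *Nanog* reads 36.4-fold at E2.5 and 1.73-fold at E3.5. These ratios within a stage do not depend on how the stages are scaled. For *Pou5f1* against *Sox2* they were 2062-fold and 50.9-fold.

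Among the zinc finger factors, *Zfp42* (chr8:43295067-43307009, minus strand) had means of 1039 and 5247, or 44.1 and 193 CPM, 4.38-fold higher at E3.5. *Klf2* (chr8:72319062-72321654, plus strand) went the other way, with means of 1243 and 536, or 52.8 and 19.7 CPM, 2.68-fold lower at E3.5. *Klf4* (chr4:55527137-55532475, minus strand) had means of 951 and 1238, or 40.4 and 45.6 CPM, a log2 difference of 0.18 that became -0.22 with the median of all genes set to 0. The 2 Kruppel-like genes stood in opposite order at the 2 stages. Per kilobase of exon *Klf2* was 2.03-fold above *Klf4* at E2.5, and *Klf4* was 1.36-fold above *Klf2* at E3.5.

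The nuclear receptors and the T-box factor were all lower at E3.5. *Nr5a2* (chr1:136843584-136960448, minus strand), an orphan receptor that also binds *Pou5f1* regulatory DNA in stem cells, had means of 2688 and 851, or 114 and 31.3 CPM, 3.64-fold lower. *Esrrb* (chr12:86361117-86521628, plus strand), an orphan receptor related to the estrogen receptors, had means of 1346 and 1055, or 57.1 and 38.9 CPM, 1.47-fold lower and inside the 2-fold limit. *Tbx3* (chr5:119670862-119684724, plus strand) had means of 5842 and 1639, or 248 and 60.4 CPM, 4.11-fold lower, the lowest log2 difference of the 10. Of all genes that passed the filter, 7.82% had a lower log2 difference than *Tbx3* and 8.89% a lower one than *Nr5a2*. *Tdgf1* (chr9:110939608-110946158, minus strand) had means of 3315 and 4262, or 141 and 157 CPM, with a log2 difference of 0.16 that became -0.23 with the median of all genes set to 0 and -0.01 with exon reads.

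Levels of different genes were compared per length only. In RPKM, the exon reads per kilobase after scaling to 1000000 exon reads of the stage, the order at E2.5 was *Pou5f1* (258), *Tdgf1* (64.8), *Tbx3* (37.8), *Nr5a2* (30.4), *Klf2* (21.2), *Zfp42* (19.2), *Klf4* (10.5), *Esrrb* (7.42), *Nanog* (7.09) and *Sox2* (0.125). *Pou5f1* made up 56.6% of the sum of the 10. At E3.5 the order was *Zfp42* (98.7), *Pou5f1* (78.9), *Tdgf1* (64.5), *Nanog* (45.7), *Klf4* (11.2), *Tbx3* (8.72), *Klf2* (8.21), *Nr5a2* (7.19), *Esrrb* (5.65) and *Sox2* (1.55). *Nanog*, the last of the leading 4 at E3.5, stood 4.08-fold above *Klf4*, the next. Without values per embryo, whether neighbours in either order differ beyond their spread was not tested. Using the exons of the single most read transcript left both orders as they were. At E2.5, 9 of the 10 densities were above the median of expressed genes, and at E3.5, 8 were.

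The wider pluripotency network gave a different picture. Of 34 further genes of that network, 29 passed the filter, *Otx2* (0.623 and 6.06 CPM, named for this alone) only through its level at E3.5. Of the 29, 15 were at least 2-fold higher at E3.5, beside 34.2% of all genes. At least 2-fold lower was 1, beside 17.9% of all genes. The other 13 lay between, and the median log2 difference of the list was 1.05. The lowest was *Fbxo15*, an OCT4 target gene, at 9967 CPM at E2.5 and 995 CPM at E3.5. The highest was *Stat3*, the transcription factor downstream of LIF, at 7.30 and 109 CPM. *Lifr* and *Il6st*, which encode the LIF receptor chains and were picked out after their values were seen, went from 4.69 to 39.2 and from 1.13 to 9.85 CPM. *Tfcp2l1*, a factor of naive stem cells also picked out afterwards, went from 107 to 619 CPM.

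The lineage markers had larger differences. Of all genes, 34.2% were at least 2-fold higher and 17.9% at least 2-fold lower at E3.5. Of 16 trophectoderm markers, 13 were at least 2-fold higher and 2 at least 2-fold lower at E3.5, with a median log2 difference of 4.30. *Dppa1* had the largest difference (0.137 and 805 CPM), and *Tfap2c*, an AP-2 factor of trophoblast, the lowest (224 and 68.1 CPM). Of 15 primitive endoderm markers, 13 passed, of which 11 were at least 2-fold higher and 1, *Gata4* (53.8 and 9.32 CPM), at least 2-fold lower, with a median of 3.86. *Serpinh1* was the highest of that list (0.0252 and 9.09 CPM). In the list of 9 inner cell mass and epiblast markers, 6 of which are among the 10 factors, 4 were at least 2-fold higher and 2 at least 2-fold lower, with a median of 0.46. *Pou5f1* was the lowest of that list and *Spp1* the highest (0.322 and 636 CPM). *Dppa1*, *Serpinh1* and *Spp1* had E2.5 means of only 3.23, 0.594 and 7.58 normalized estimated counts. They passed the filter only through their level at E3.5, as did *Elf5*, *Lama1* and *Hnf4a*, so the size of their differences rests on few reads at E2.5. Summed, the trophectoderm markers went from 718 to 6574 CPM, the primitive endoderm markers from 349 to 1118, and the 10 factors from 1104 to 835. The part of the cell types' shares in the levels of the 10 factors was not tested.

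**Figure D2:**
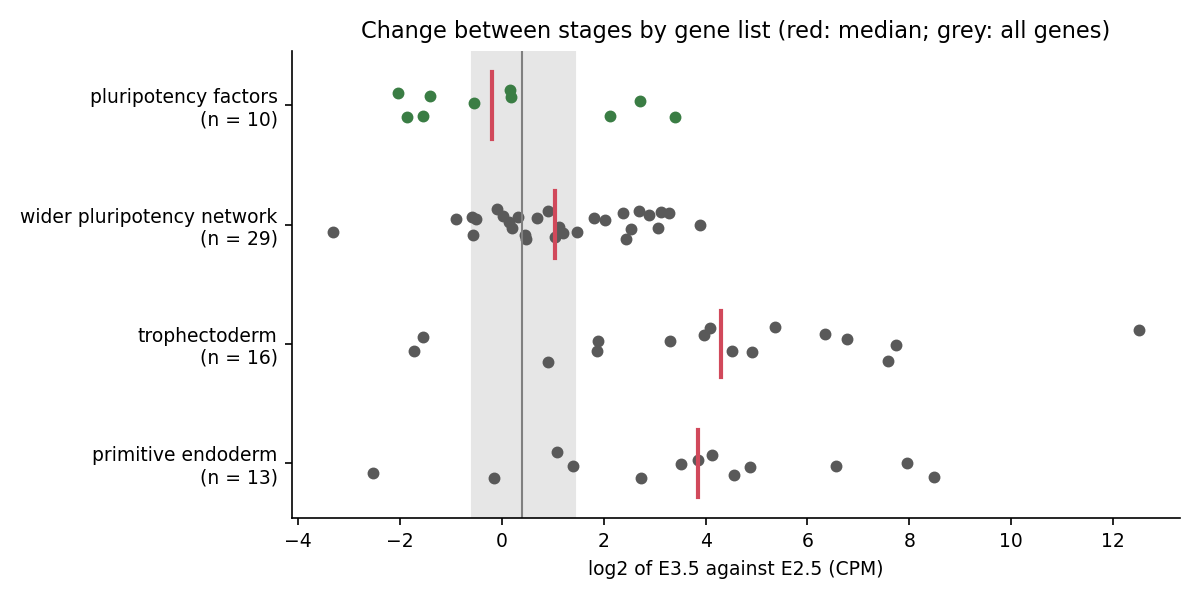
Log2 difference between E3.5 and E2.5 of single genes (points) in 4 lists, with the median of each list as a red line and the median and middle 50% of all 11817 genes in grey. The pluripotency factors spread from -2.04 to 3.39 on both sides of the grey median, while most trophectoderm and primitive endoderm markers lie to its right.

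The exon table allowed the stages to be compared along each gene. In it every exon and intron of the RefSeq transcripts has its own mean read count, and each was scaled to the total of all exons of its stage. Across the 10032 genes with at least 3 exons and enough reads, the log2 difference of the last exon minus that of the other exons, called the shift here, had a median of 1.15, and 56.4% of these genes shifted by 2-fold or more towards the last exon. The last exon held a median of 23.2% of a gene's exon reads at E2.5 and 38.7% at E3.5. Of the 9 factors with several exons, 6 shifted by 2-fold or more, beside the 56.4% of all genes. The median of the 9 was 1.86.

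*Esrrb* had the largest shift of the factors (2.79), and 96.3% of all genes had a smaller one. Its last exon (chr12:86518821-86521628) was read 1111 times per embryo at E2.5 and 874 times at E3.5, while the exon before it (chr12:86514281-86514550) went from 55.5 to 5.13 reads. At E3.5 the last exon held 96.2% of the exon reads of *Esrrb*, against 78.4% at E2.5.

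*Tbx3* and *Nr5a2* shifted by 2.24 and 2.19. In *Tbx3* the exon before the last (chr5:119680395-119681065) went from 1443 to 94.2 reads and the last (chr5:119682631-119684724) from 2258 to 981. Scaled, the last exon of *Tbx3* was 1.94-fold lower at E3.5 and the other exons together 9.16-fold lower. In *Nr5a2* the last exon (chr1:136843584-136845710) went from 658 to 402 reads, 1.38-fold lower once scaled, and the other exons were 6.26-fold lower.

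*Klf4*, *Klf2* and *Tdgf1* shifted by 1.89, 1.86 and 1.72. On the scale of all exons, the small differences of *Klf4* and *Tdgf1* between stages were sums of opposite ones. On that scale the last exons of all genes had a median log2 difference of 0.99, and the other exons one of -0.10. Those of *Klf4* were 1.07 and -0.82, and those of *Tdgf1* 0.73 and -0.99. With each part scaled to its own total, they were 0.55 and -0.66 in *Klf4* and 0.21 and -0.84 in *Tdgf1*. The last exon of *Klf4* (chr4:55527137-55528300) was read 430 and 763 times, 2.10-fold higher at E3.5 once scaled, and its first exon (chr4:55531867-55532475) 49.0 and 7.16 times. In *Tdgf1* the last exon (chr9:110939608-110940819) went from 2200 to 3075 reads, 1.66-fold higher, and the exons before it together were 1.99-fold lower. *Klf2* was lower in both parts, 1.79-fold in the last exon and 6.47-fold in the exons before it.

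*Nanog* and *Pou5f1* shifted less than the median gene, by 0.93 and 0.54. Both had the same direction in either part. The last exon of *Nanog* (chr6:122713142-122714633) went from 314 to 2266 reads, 8.56-fold higher, and the other exons were 4.50-fold higher. The last exon of *Pou5f1* (chr17:35510288-35510777) went from 2615 to 907 reads, 2.43-fold lower, and the other exons were 3.53-fold lower. *Zfp42* was the exception among the 9, with a shift of -0.52 that only 3.52% of all genes undercut. Its first exon (chr8:43306841-43307009) went from 189 to 1178 reads and its last (chr8:43295067-43296536) from 807 to 2945, so the exons before the last were 6.20-fold higher and the last 4.33-fold higher.

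The count of factors between the stages therefore differed by part of the gene. With the last exon alone, on the scale of all exons, 4 of the 10 (*Sox2*, *Nanog*, *Zfp42* and *Klf4*) were at least 2-fold higher and *Pou5f1* alone was at least 2-fold lower, beside 49.5% and 9.9% of 9350 genes. With last exons scaled to their own total, 3 were higher and 3 (*Pou5f1*, *Tbx3* and *Klf2*) lower, beside 36.7% and 18.2% of 11948 genes. With the exons before the last, *Nanog* and *Zfp42* were higher and 5 of 9 factors lower, *Esrrb* among them, beside 24.4% and 29.3% of 9656 genes on the scale of all exons. Scaled to their own total, these exons gave the same counts of factors, beside 28% and 26% of 10070 genes.

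**Figure D3:**
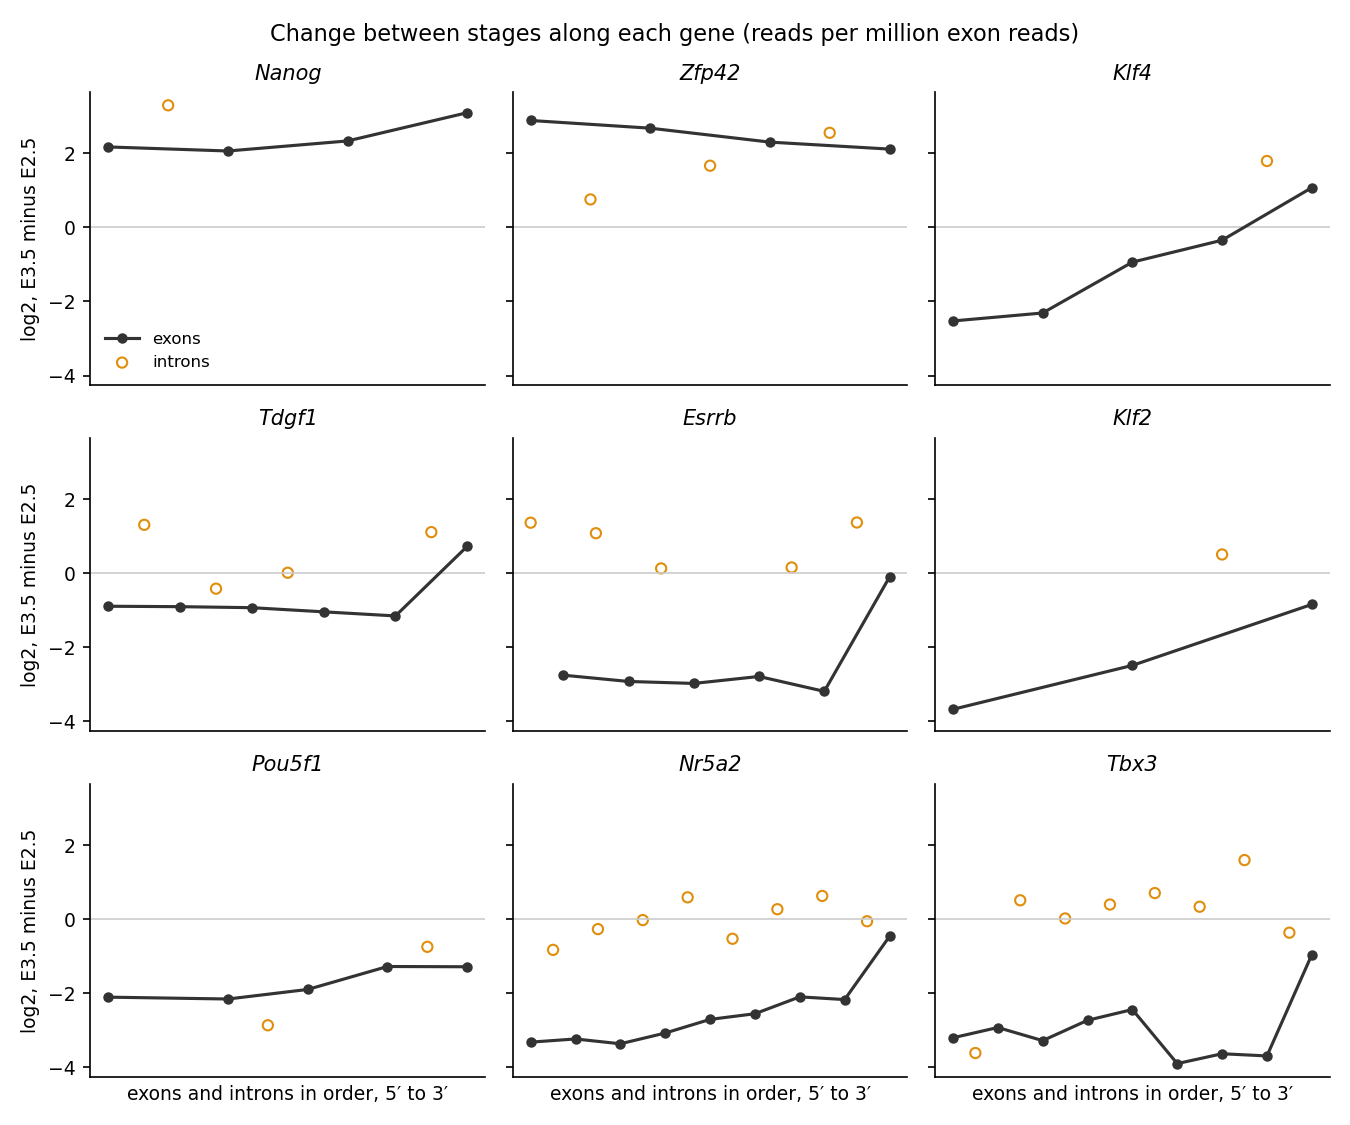
Log2 difference between E3.5 and E2.5, in reads scaled to the exon total of the stage, of each exon (black, joined) and intron (open circles) of 9 factors in order from the 5′ to the 3′ end, for parts with a mean of at least 5 reads over both stages. Except in *Zfp42*, the last exon is the highest or level with the highest exon, and in *Esrrb*, *Nr5a2* and *Tbx3* most introns lie above the exons.

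Introns were compared with exons in the same way. In the 10006 genes with enough reads in both, the log2 difference of the introns exceeded that of the exons by a median of 0.89, and in 45.6% by 2-fold or more. Of the 9 factors with introns, 4 passed this limit: *Tbx3* by 2.52, *Nr5a2* by 2.31, *Esrrb* by 1.32 and *Klf2* by 1.21. *Klf4*, at 0.997, fell just short of it and was the median of the 9. The same 4 factors passed with the introns that hold no GENCODE exon, at 2.66, 2.26, 1.47 and 1.21, beside 53.1% of 7068 genes. *Pou5f1* had too few reads in such introns to be counted there. With either set of introns, the share of factors that passed was close to that of all genes.

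In *Nr5a2* the introns together had 3790 reads per embryo at E2.5 and 3733 at E3.5, while its exons had 4841 and 965. A single intron of 49.6 kb (chr1:136890803-136940408) held 2326 of these intron reads at E2.5 and 2369 at E3.5. In *Tbx3* the introns had 750 and 837 reads and the exons 7564 and 1469. Read density in the introns of *Tbx3* was 5.31% of that in its exons at E2.5 and 30.5% at E3.5, where 95.8% of all genes had a lower share. GENCODE places further *Tbx3* exons in 4 of these 8 introns, and the 4 introns without one had 148 and 182 reads and shares of 1.75% and 11.1%. With the median of the 8 introns the shares were 2.88% and 20.8%. The corresponding shares of *Nr5a2* were 2.84% and 14.03%, and 2.78% and 13.3% in its 6 introns without a further GENCODE exon. With the median of its 8 introns they were 2.04% and 9.34%. In *Esrrb* the introns went from 377 to 605 reads, against 1417 and 909 in the exons. Its 2 introns without a further GENCODE exon had 207 and 368. Once scaled, the exons of *Tbx3*, *Nr5a2* and *Esrrb* had log2 differences between stages of -2.12, -2.08 and -0.39. Their introns had log2 differences of 0.41, 0.23 and 0.93, below the median of 1.17 of the introns of all genes. The exons of all genes had a median log2 difference of 0.33 and a lower quartile of -0.67. Those of *Tbx3* and *Nr5a2* lay below this quartile, and those of *Esrrb* above it. What lies behind the excess of introns over exons in these 3 factors was not tested. At the other end, *Pou5f1* introns had 21.0 and 6.77 reads, 0.200% and 0.252% of the exon density. *Zfp42* again stood apart, with a log2 difference of the introns minus that of the exons of -0.84 (86.9 and 211 intron reads), where 6.62% of all genes were lower.

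**Figure D4:**
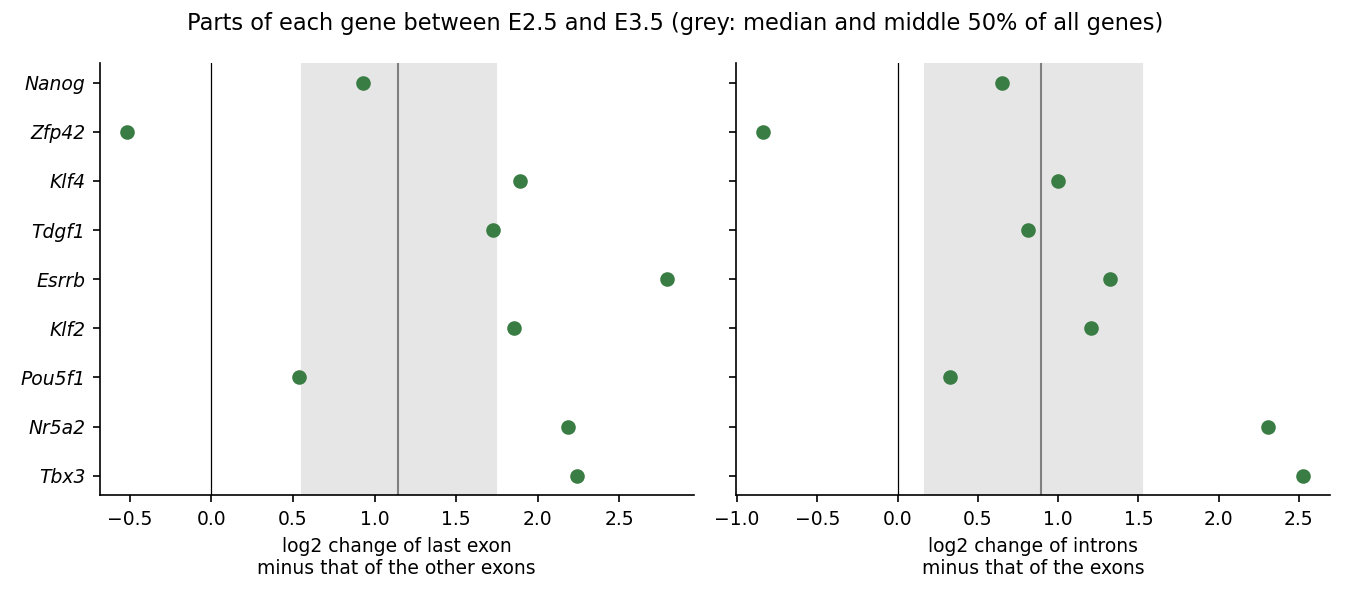
For 9 factors, the log2 change of the last exon between stages minus that of the other exons (left) and of the introns minus that of the exons (right). Grey lines and bands are the median and the middle 50% of 10032 and 10006 genes. *Tbx3* and *Nr5a2* lie at the upper end in both panels, and *Zfp42* is below 0 in both. *Esrrb* lies at the upper end on the left and, at 1.32, inside the grey band on the right.

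Annotated first exons differed widely in their reads. *Nr5a2* has 2 RefSeq starts. The downstream first exon (chr1:136953494-136953630), which follows the *Nr5a2* promoter printed above, had a mean of 261 reads at E2.5 and 22.1 at E3.5, and the upstream one (chr1:136960227-136960448) had 1.52 and 2.87. In *Pou5f1* the upstream first exon (chr17:35506032-35506483) had 3919 and 769 reads, and the downstream one (chr17:35508807-35508896) had 1.35 and 1.42. In *Nanog* the short upstream first exon (chr6:122707489-122707516) had 0.150 and 0.365 reads, against 100.2 and 380 in the exon that starts at the promoter printed above (chr6:122707565-122707933). Both annotated first exons of *Esrrb* (chr12:86361117-86361538 and chr12:86421644-86421964) were listed at 0 at both stages, and the first exon with reads was the one that the 2 transcripts share (chr12:86470146-86470555), with 94.7 and 11.9. The intron before it (chr12:86421965-86470145) had 51.5 and 112 reads, and GENCODE places 2 further *Esrrb* exons in it.

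Some of these levels share sequence with other genes. Of the 31-base words in their GENCODE transcripts, 13.4% of *Zfp42*, 12.6% of *Tdgf1*, 10.7% of *Nanog* and 14.2% of *Pou5f1* also occur in other genes' transcripts on either strand. For *Zfp42* and *Tdgf1* nearly all of these words are in the processed copies *Zfp42-ps1* (255 of 255) and *Tdgf1-ps1* (330 of 334). For *Nanog* 103 of 239 are in *Nanog-ps1*, and for *Pou5f1* 259 of 327 are in the antisense gene *Gm19553*. For the other 6 factors the share was at most 2.09%. *Pou5f1* and *Tbx3* overlap the antisense genes *Gm19553* and *Tbx3os1* in exons, and because the libraries do not keep the strand, reads of the 2 strands cannot be told apart there. No GENCODE exon of another gene lies in the introns of *Nr5a2*, *Esrrb* or *Tbx3* described above.

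One factor holds the nonamer UACAGAGAA that METTL16 methylates in the *Mat2a* hairpins, which makes its sequence worth showing. Among GENCODE transcripts of the 10 factors it occurs once, in *Sox2*, and 2401 of 55341 gene names (4.34%) have a transcript with it. It lies in the 3′ untranslated region of the *Sox2* exon at chr3:34651620-34651628, behind the stop codon that ends at 34651375. The 30 bases around it (chr3:34651609-34651638, plus strand), cut as in the synthetic library with 11 bases before the nonamer and 10 after, are given with the nonamer in capitals.

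*Sox2* window: gactatttttgTACAGAGAAaacctgaggg

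RNAfold pairs bases 14 to 16 of this window with bases 24 to 26 around a loop of 7 bases, at a free energy of -0.80 kcal/mol. Adenosine 15, the one that METTL16 methylates, is inside the 3-pair stem. It is paired in 10222 of the library's structures and unpaired in 26613. In the in vitro experiment, a randomized 30-base RNA library with this nonamer, taken from a human *MAT2A* hairpin, was incubated with recombinant human METTL16. The library was then precipitated with an m6A antibody in the 2 reactions numbered 11 and 12. All library RNAs predicted to take this structure together had normalized read values of 30720 and 30658 in the input libraries of reactions 11 and 12, and 54253 and 43152 in the m6A-IP libraries. The m6A-IP value was above the input in both reactions, by a log2 of 0.82 and 0.49 after a pseudocount of 5. The mean of 0.66 was higher than that of 87.3% of the 36835 structures, whose median was -0.27, and than that of 82.8% of the structures in which adenosine 15 is paired. Among the 32 structures, this one included, whose value in their lowest library was at least 0.5 of its lowest, this one was highest. The others, 96.9% of the 32, were all lower. The m6A-IP library of reaction 12 was the shallowest, with 843 structures at 0 and none at 0 in the other 3 libraries. These are values of synthetic RNAs that share a predicted fold, with 2 reactions and no test, and methylation of *Sox2* RNA was not measured.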

How the data were processed

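Polyadenylated RNA of single embryos was amplified by Smart-seq2, which does not keep the strand, and sequenced in pairs. Per the labels and the methods, the authors ran Salmon 0.7.2 against RefSeq transcripts (mm10), summed its estimated counts to genes, counted reads per exon and intron with STAR alignments and featureCounts, and normalized each stage with DESeq2 1.18.1. The deposited signal is the mean normalized count over all embryos of a stage. The tables also hold the authors' log2 fold changes between genotypes and adjusted p-values, which were not used. For the in vitro table the authors folded reads of the nonamer library with RNAfold and deposited, as signal, reads per structure divided by size factors. All per-sample columns were mapped to a sample.

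No table used here holds a value per embryo, so the planned comparison of KO with WT embryos was not run. The paper lists the reads of each library, which were not used here. Gene means were scaled to a stage total of 1000000 (CPM) and genes with at least 1 CPM over both stages were kept. Exons inside a longer exon of the same gene were dropped, and so were introns that hold a RefSeq exon of it. Introns kept can hold GENCODE exons, and they were left out as an alternative. Reads that span features may count for each. Parts of genes needed a mean of 10 reads. A 2-fold difference describes size and is not a test. Steps across genes were tested on simulated data. Promoters are from RefSeq (GRCm38.p6) and held an entry for 9 of the 10 factors, *Tbx3* being the other. Transcripts are from GENCODE vM21. The Sox2 window was folded with RNAfold 2.7.2. Python 3.11.15, pandas 2.3.3 and numpy 2.4.6 were used.

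Genes named are the 10 factors, the highest and lowest of each list, *Mettl16* and *Mat2a*, and others where the text says so. First and last exons were named, and introns or exons that differ widely within a factor. The factors and lists were chosen with earlier results of these data known. Of 4 hematopoietic markers, 1 passed the filter (*Hba-a1*, 2.10 and 0.441 CPM). Alternatives were other scalings, no filter, exon reads, single transcripts, median introns, introns of at most 50 kb, and, for the structure, other pseudocounts, totals and each library left out. Reads of the last exon alone or of the other exons alone, a minimum of 50 reads, the first intron left out and introns without a GENCODE exon were chosen after seeing the data.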

Additional observations from a re-analysis of the deposited data

How the results depend on the processing

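The counts of factors at least 2-fold higher and lower at E3.5 were 3 and 4 under each planned scaling and with exon reads. With the last exon alone they were 4 and 1 on the scale of all exons, where 926 of 9350 genes were lower, and 3 and 3 with last exons scaled to their own total, where *Nr5a2* was just inside the limit at -0.98. With the exons before the last they were 2 and 5 of 9 on either scale, with 2360 of 9656 genes higher on the scale of all exons, and *Sox2* has no such exon. Without the filter, 6595 genes were at least 2-fold higher and 4558 lower, because 19639 genes were then counted. The same 6 factors were past 2-fold in the last exon with at least 50 reads, and the same 4 in the introns without the first intron, of 8 factors and beside 51.8% of all genes. With libraries scaled to their totals, the in vitro log2 value of the structure of *Sox2* was 0.89 in place of 0.66, and it was between 0.49 and 0.82 with any of the 4 libraries left out. With the median intron in place of the sum, intron shares of exon density at E2.5 and E3.5 were 2.88% and 20.8% for *Tbx3* and 2.04% and 9.34% for *Nr5a2*. No intron kept was longer than 50 kb, so leaving out longer ones moved nothing. The comparison of KO with WT embryos and its alternatives were not run. No paired analysis was possible because the results come from no test and the means hold no value per embryo. Pooled means limit every difference between stages: the spread between embryos and the genotype mix cannot be separated from the stage.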
